A study of Drosophila melanogaster with 33 samples.

Results

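The 8 Hox genes of *Drosophila melanogaster*, *lab*, *pb*, *Dfd*, *Scr*, *Antp*, *Ubx*, *abd-A* and *Abd-B*, were taken by name from the 17796 annotated genes of the 7 chromosome arms, of which 13968 code for protein. For each of them, every summit of the transcription factor Lola-I was collected that lay within 200 bp of a transcription start site (TSS), in an intron or in the intergenic sequence up to the nearest protein-coding gene on either side. The series used ChIP-seq, which sequences the DNA that an antibody pulls down together with a chromatin protein, on fly embryos. It has 33 samples in 12 groups, which differ in genotype, in age and in the protein targeted. The values here come from the 2 libraries, replicates 1 and 2, made with a custom rabbit polyclonal antibody to Lola-I from wild-type OregonR embryos aged 14 to 17 h, and each has 1 peak list. The other 31 samples were not analysed here, so no genotype, age or target was compared. Embryos were used whole: a strong signal in few cells and a weak signal in many cannot be told apart, and peak lists hold no expression values with which to check the cell types present.

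Hox genes encode homeodomain transcription factors that give the segments of the body their identity along the head-to-tail axis. In the fly they lie in 2 clusters on chromosome arm 3R, the Antennapedia complex with the genes of the head and anterior thorax and the bithorax complex with those of the posterior thorax and abdomen, and long introns and intergenic stretches hold their enhancers and insulators. Polycomb group proteins keep each gene silent outside its own domain and trithorax group proteins keep it active inside. The DNA elements through which Polycomb proteins act often carry the word bound by Pho, with the core GCCAT, and the GAGAG word bound by GAF. Lola-I is a zinc-finger protein made from the gene *lola*, and the title of the series connects it with promoters and the pausing of RNA polymerase II.

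Coordinates are those of build dm6. In the Antennapedia complex, *lab* (FBgn0002522) spans chr3R:6661427-6678590, *pb* (FBgn0051481) chr3R:6707800-6742063, *Dfd* (FBgn0000439) chr3R:6791836-6802428, *Scr* (FBgn0003339) chr3R:6823120-6849981 and *Antp* (FBgn0260642) chr3R:6896253-6999228. In the bithorax complex, *Ubx* (FBgn0003944) spans chr3R:16656623-16734426, *abd-A* (FBgn0000014) chr3R:16807214-16830049 and *Abd-B* (FBgn0000015) chr3R:16927212-16972236. All are on the minus strand except *Dfd*. Together they have 19 annotated TSSs, 1 each in *pb*, *Dfd* and *Ubx*, 2 in *lab* and *Scr*, 3 in *Antp* and *abd-A* and 6 in *Abd-B*. TSSs are numbered here by position, from the most upstream one of each gene.

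The sequences that carry the comparisons below are the 101 bases centred on 7 replicate 2 summits, read from RefSeq Release 6 (dm6, plus strand, 5′ to 3′). Capitals mark 3 words on either strand, which may overlap: AAAGCT (reverse AGCTTT), a word that earlier work on these same lists had found at most Lola-I peaks present in both, GAGAG (reverse CTCTC) and GCCAT (reverse ATGGC). The pair from the *Antp* introns is shown because these are the Hox peaks found in both lists that have AAAGCT.
*Antp* intron, left, chr3R:6912302-6912402: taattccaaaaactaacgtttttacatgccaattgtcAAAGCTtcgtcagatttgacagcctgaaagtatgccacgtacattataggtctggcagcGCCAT
*Antp* intron, right, chr3R:6973399-6973499: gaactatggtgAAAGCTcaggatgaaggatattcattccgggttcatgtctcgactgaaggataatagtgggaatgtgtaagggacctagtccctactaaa
The next pair were also found in both lists and have no AAAGCT. They lie between *Ubx* and *abd-A* inside the noncoding gene *lncRNA:bxd*, and between *abd-A* and *Abd-B*, where the best-ranked Hox summit of both lists falls.
*Ubx* to *abd-A* stretch, chr3R:16764135-16764235: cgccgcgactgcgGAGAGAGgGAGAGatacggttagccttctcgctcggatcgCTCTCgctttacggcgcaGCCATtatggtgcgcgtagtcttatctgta
*abd-A* to *Abd-B* stretch, chr3R:16869450-16869550: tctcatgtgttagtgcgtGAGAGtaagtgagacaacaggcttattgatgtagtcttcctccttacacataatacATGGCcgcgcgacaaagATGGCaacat
The last 3 are the best-ranked summits next to a Hox TSS and were found in replicate 2 alone.
*Dfd* upstream, chr3R:6791583-6791683: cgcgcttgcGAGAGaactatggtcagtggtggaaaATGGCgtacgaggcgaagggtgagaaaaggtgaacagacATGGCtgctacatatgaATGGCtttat
*Ubx* promoter, chr3R:16734475-16734575: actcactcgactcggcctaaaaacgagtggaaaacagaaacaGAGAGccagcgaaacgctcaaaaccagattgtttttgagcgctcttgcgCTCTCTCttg
*abd-A* promoter, chr3R:16830145-16830245: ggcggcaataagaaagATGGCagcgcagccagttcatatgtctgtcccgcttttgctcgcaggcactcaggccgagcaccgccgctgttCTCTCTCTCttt

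The lists differ in length, with 1759 peaks in replicate 1 and 9674 in replicate 2, so the replicates are given side by side throughout. A peak is called shared here when it and a peak of the other list had 1 bp or more in common, which held for 1534 peaks of replicate 1 and 1468 of replicate 2. A rank is the place of a peak by deposited score within its own list, with 1 as the best, and fold enrichment is the authors' own value over the caller's background. Read depth is not given by peak lists and is unknown. The labels number the replicates without saying whether they came from separate collections of embryos, and no p-value is given.

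No Hox promoter held a Lola-I summit in replicate 1, and 6 of 8 held one in replicate 2. Within 200 bp of a TSS, replicate 1 had summits at 0 of 8 Hox genes, against 4.65% of all genes and 5.50% of protein-coding genes. Replicate 2 had them at 6 of 8, *lab*, *pb*, *Scr*, *Ubx*, *abd-A* and *Abd-B*, against 25.9% of all genes and 30.9% of protein-coding genes. Both lists together gave 0 of 8, against 4.60% of all genes and 5.44% of protein-coding genes. The 6 genes rest on replicate 2 alone. With replicate 2 limited to its best-scoring peaks, as many as replicate 1 has, 2 of 8 genes were left, *Ubx* and *abd-A*. The share of all genes under this limit is not given, so this count cannot be set beside the shares above. A gene counts here when any of its TSSs has a summit, and the background shares were not matched for the number of TSSs. At the TSS used by most transcripts, *abd-A* (443 bp) and *Abd-B* (3535 bp) had no replicate 2 summit within 200 bp, while *lab*, *pb*, *Scr* and *Ubx* did. For that TSS too, no share of all genes is given. No difference from other genes was tested.

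Among the head genes of the Antennapedia complex, *lab*, which acts in the most anterior Hox segment and the midgut, had a replicate 2 summit 90 bp upstream of TSS 1, at rank 2252 with a 9.98-fold enrichment. The nearest summit to its TSS 2 lay 1162 bp upstream at rank 7299. *pb*, needed for the adult mouthparts, had one 131 bp upstream at rank 2682 (9.63-fold), and *Scr*, which specifies the labial and anterior thoracic segments, had one 108 bp upstream of TSS 1 at rank 2255 (11.3-fold) and one 198 bp upstream of TSS 2 at rank 3200 (6.88-fold). These 4 promoter summits lay between ranks 2252 and 3200, outside the best 10% of the list. *Dfd*, which specifies the mandibular and maxillary segments, had the summit with the best rank next to any TSS of the Antennapedia complex, at rank 559 and 32.8-fold, but at 203 bp upstream it fell just outside the limit. *Antp*, the main Hox gene of the thorax, had no summit this close: the nearest to TSS 1 lay 308 bp upstream at rank 7610 (4.08-fold), and those nearest to TSS 2 and TSS 3 were 8402 and 2198 bp away.

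In the bithorax complex, *Ubx*, which sets the identity of the posterior thorax and anterior abdomen, had a replicate 2 summit 99 bp upstream of its TSS at rank 1121 with a 30.5-fold enrichment. *abd-A*, which acts in the middle of the abdomen, had the highest promoter value of the 8 genes, 66.2-fold at rank 481, 146 bp upstream of TSS 1. The same summit is the nearest one to its TSS 2 and TSS 3, 443 and 2090 bp upstream. *Abd-B*, which specifies the posterior abdomen and genitalia, had 1 of 6 TSSs within the limit, TSS 4, with a summit 149 bp upstream at rank 2721 (7.85-fold). Its TSS 6 had one 205 bp upstream at rank 2275 (7.04-fold), and the nearest summits to TSS 1, TSS 2, TSS 3 and TSS 5 lay 586, 1142, 2023 and 3535 bp away. Just inside the 200 bp limit was *Scr* TSS 2, at 198 bp, and just outside it were *Dfd*, at 203 bp, and *Abd-B* TSS 6, at 205 bp. All 7 promoter summits lay upstream of their TSS.

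The choice of distance changes which genes are counted. Within 100 bp, replicate 2 had summits at 2 of 8 Hox genes, *lab* and *Ubx*, against 21.8% of all genes, and within 500 bp it had them at 8 of 8, against 32.0%. Replicate 1 had none at any Hox gene even within 1000 bp, against 7.80% of all genes. The median distance from the 19 Hox TSSs to the nearest summit was 308 bp in replicate 2 (range 90 to 8402 bp) and 17.6 kb in replicate 1 (range 1125 bp, at *Abd-B* TSS 2, to 83.6 kb, at *Dfd*). Over 13945 protein-coding genes on chromosomes with peaks, at the TSS used by most transcripts, the median was 2.61 kb in replicate 2, with quartiles of 0.137 and 8.51 kb, and 23.6 kb in replicate 1, with quartiles of 8.58 and 52.0 kb. The 2 ways of counting differ, since the Hox medians run over every TSS and those of all coding genes over 1 value a gene. Over 1 value a gene the Hox medians were 0.201 kb in replicate 2 and 29.7 kb in replicate 1.

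**Figure D1:**
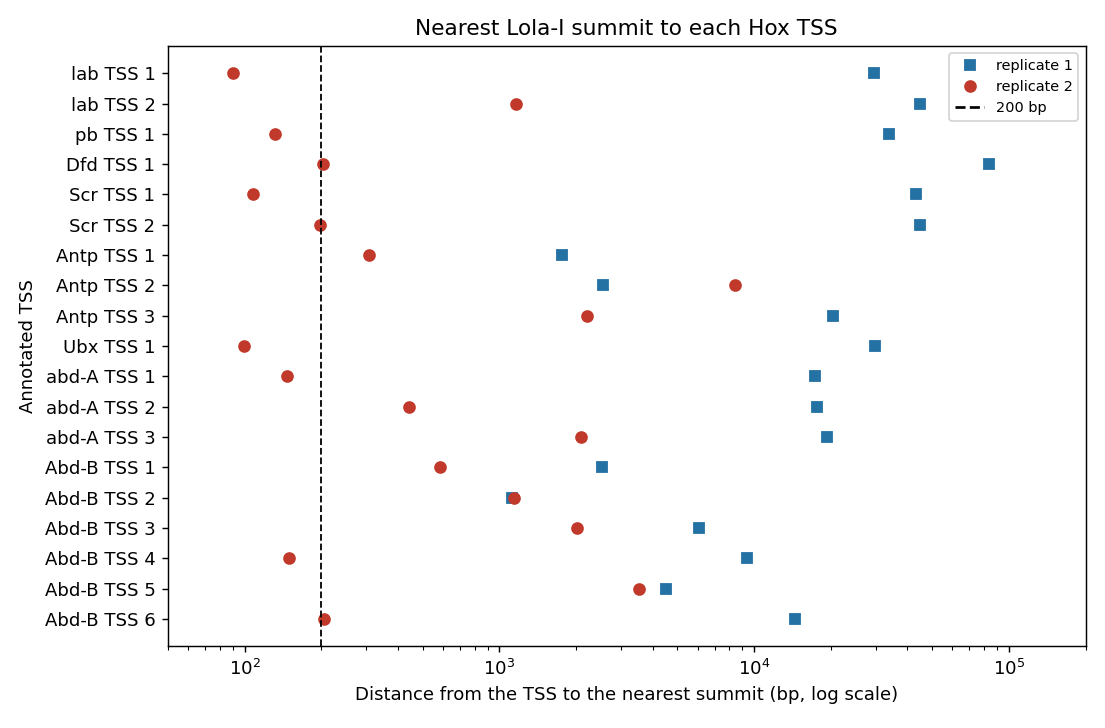
Distance from each of the 19 annotated Hox TSSs (rows) to the nearest Lola-I summit, in bp on a log scale, with replicate 1 as squares and replicate 2 as circles. The dashed line marks 200 bp: 7 TSSs in replicate 2 and 0 in replicate 1 lie below it.

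Summits in introns were found in both replicates at *Antp* and *Abd-B* only among the Hox genes. Replicate 1 had an intron summit in 2 of 8, *Antp* and *Abd-B*, against 2.58% of the 12718 genes with an intron. Replicate 2 had one in 6 of 8, all but *Dfd* and *Scr*, against 12.2%, and both lists had one in 2 of 8, against 2.52%. Hox genes are long, so a closer set is the 1985 protein-coding genes of 10 kb or more, which all 8 belong to. Among these the shares were 12.4% in replicate 1, 50.3% in replicate 2 and 12.1% in both. Length was still not matched within this set: *Antp* spans 103 kb and *Abd-B* 45.0 kb.

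*Antp* had 3 intron summits in replicate 1 and 12 in replicate 2, and 2 of them coincided. The left one, 20.5 kb downstream of TSS 3, ranked 342 in replicate 1 (10.4-fold) and 318 in replicate 2 (91.7-fold), and the summits were 3 bp apart. The right one, 15.1 kb upstream of TSS 2, ranked 367 in both lists, at 10.6-fold in replicate 1 and 90.0-fold in replicate 2, with the summits 5 bp apart. These had the highest fold enrichments of all Hox peaks in replicate 2 and are the pair shown above with AAAGCT. The left one also lies inside *CG46458*, a gene that overlaps *Antp*. The remaining replicate 1 summit, at rank 1574 with a 2.71-fold enrichment, had no replicate 2 peak, and the replicate 2 ranks of the *Antp* introns ran down to 9281.

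*Abd-B* had 2 intron summits in replicate 1 and 9 in replicate 2, and both of the replicate 1 summits were found in replicate 2. One of them, 1142 bp upstream of TSS 2 in replicate 2, ranked 1010 in replicate 1 (4.14-fold) and 1271 in replicate 2 (26.4-fold). It is the summit of replicate 1 nearest to any Hox TSS. The introns of the other genes held summits of replicate 2 alone. *Ubx* had 5, at best rank 1296 (18.7-fold), *abd-A* had 3, at best rank 1084 (16.3-fold), *pb* had 1 at rank 1641 (19.9-fold) and *lab* had 1 at rank 7299 (3.00-fold). In exons, replicate 1 had 1 summit, in coding sequence of *pb* (rank 1676, 2.47-fold), which replicate 2 did not have, and replicate 2 had 1 in the 5′ UTR of *pb* (rank 5368) and 1 in the 3′ UTR of *Antp* (rank 3381).

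In flanking sequence every Hox gene had a replicate 2 summit, and again *Antp* and *Abd-B* had one in both lists. Replicate 1 had flank summits at 2 of 8, against 11.2% of protein-coding genes, replicate 2 at 8 of 8, against 39.8%, and both at 2 of 8, against 10.8%. The 2 genes of replicate 1 and of both lists became 0 when flanks were ended at the nearest gene of any kind, and also 0 with the higher-scoring 50% of each list. The flank counts depend on length, and *Antp* has 30.0 kb of it on its left and 53.1 kb on its right, while *Ubx* has 0.960 kb on the left. Flanks end at the nearest protein-coding gene and run across noncoding genes. Of the pair found in both lists at *Antp*, one lay 139 bp downstream of the TSS of *lncRNA:CR45559* in replicate 2 and ranked 1710 in replicate 1 (2.10-fold) and 1195 in replicate 2 (21.0-fold). The other, 1.54 kb upstream of *Antp* TSS 1 inside *lncRNA:CR45899*, ranked 1563 in replicate 1 (2.49-fold) and 1715 in replicate 2 (12.1-fold), with summits 225 bp apart, the widest gap of any shared Hox peak.

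The shared flank peak of *Abd-B* lay 111 bp upstream of one TSS of *lncRNA:iab8* in replicate 2 and ranked 1503 in replicate 1 (2.56-fold) and 761 in replicate 2 (29.6-fold). *lncRNA:iab8* is a noncoding transcript of the bithorax complex and the host of a microRNA. The other flank summits were in replicate 2 alone. *Dfd* had 7 in all, 5 of which lie between *Dfd* and *Scr* and count for both, at ranks 4469 to 9484. The best-ranked of the 5 is inside *lncRNA:CR42651* and 2 bp upstream of *lncRNA:CR45915*. The one at rank 5099 also lies inside *lncRNA:CR42651*, and the one at rank 7068 is 87 bp upstream of that gene. The best-ranked flank summits of the remaining genes were at rank 2195 in *Scr* (11.3-fold), 2532 in *lab* (9.40-fold, 28 bp upstream of the neighbour *agt*), 3307 in *pb* (9.43-fold), 4110 in *Ubx* (7.53-fold) and 1420 in *abd-A* (22.3-fold).

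**Figure D2:**
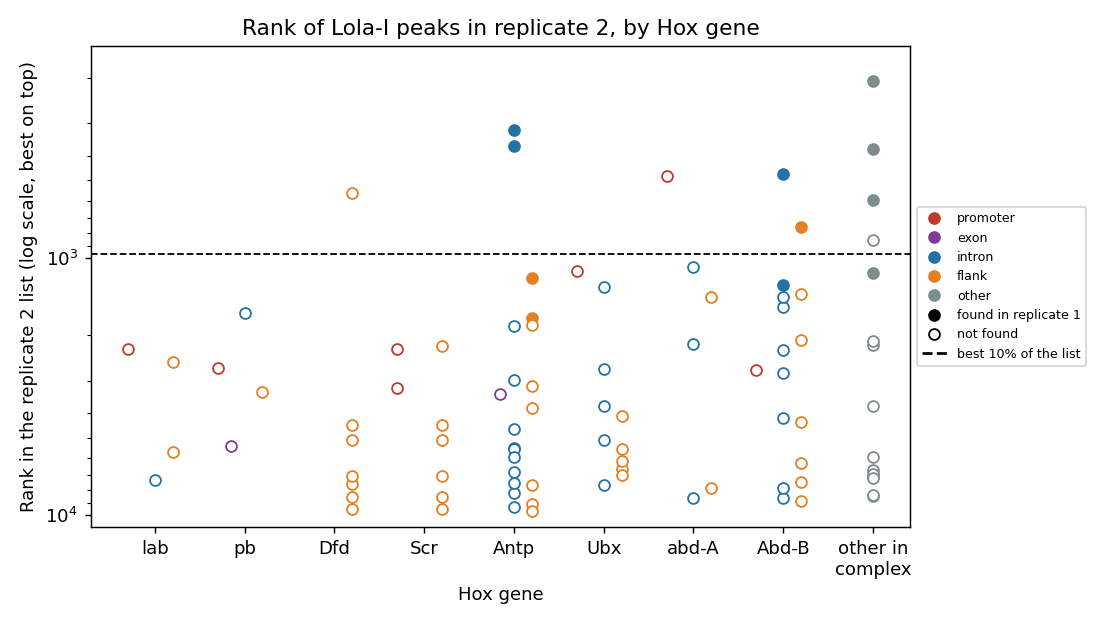
Rank of each replicate 2 summit in the Hox complexes (vertical axis, log scale, best on top) by Hox gene, coloured by position, with filled circles for peaks found in replicate 1. A flank summit between *Dfd* and *Scr* is drawn at both genes, and "other" holds summits of the complexes beyond the nearest protein-coding gene. The filled circles lie at ranks 206 to 1715, and the dashed line marks the best 10% of the list.

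Taking both complexes with their outer flanks as a whole, replicate 1 had 13 summits and replicate 2 had 88, of which 11 were shared, 4 in the Antennapedia and 7 in the bithorax complex. In replicate 2, 7 of the 88 were promoter summits, 31 lay in introns, 33 in flanks, 1 in a 5′ UTR and 1 in a 3′ UTR, and 15 lay elsewhere, in or beyond a protein-coding gene that ends a flank. All summits of these regions are called Hox peaks or Hox summits below. None of the 11 shared peaks was at a Hox promoter. The summits of the shared Hox peaks were a median of 26.0 bp apart (range 3 to 225), against 18.0 bp for all 1465 shared peaks of the arms. Enrichment had a median of 4.14-fold in replicate 1 and 32.3-fold in replicate 2 at the shared Hox peaks, against 4.95-fold and 37.0-fold at all shared peaks.

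The stretch of 97.2 kb between *abd-A* and *Abd-B*, which holds the infra-abdominal regulatory regions, held more summits than that between *Ubx* and *abd-A* in both lists. It had 4 in replicate 1 and 18 in replicate 2, the *abd-A* promoter summit included, or 4.12 and 18.5 per 100 kb, and all 4 of replicate 1 were shared. The best of them ranked 267 in replicate 1 (13.4-fold) and 206 in replicate 2 (84.7-fold), which is the best Hox rank in either list, at 39.5 kb upstream of *abd-A* TSS 1. Another ranked 644 in replicate 1 (6.39-fold) and 595 in replicate 2 (32.3-fold), and a further one 1083 in replicate 1 (3.86-fold) and 1149 in replicate 2 (29.5-fold). The fourth is the *lncRNA:iab8* peak above. In replicate 2 alone, a summit 2 bp upstream of *lncRNA:iab4*, another microRNA host, ranked 3768 (8.23-fold). Most of this stretch lies inside *lncRNA:iab8*, and a large part of it also inside the protein-coding gene *MSAmiP*, which ends the flanks of *abd-A* and *Abd-B*.

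The stretch of 72.8 kb between *Ubx* and *abd-A* held 1 summit in replicate 1 and 8 in replicate 2, the *Ubx* promoter summit included, or 1.37 and 11.0 per 100 kb. The shared one lay inside *lncRNA:bxd*, 29.8 kb upstream of the *Ubx* TSS, in the region that contains the regulatory sequences of the posterior *Ubx* domain, and ranked 1189 in replicate 1 (2.63-fold) and 378 in replicate 2 (34.9-fold). Over the whole of the bithorax complex (316 kb) there were 2.22 summits per 100 kb in replicate 1 (exact 95% Poisson interval 0.892 to 4.57) and 13.9 in replicate 2 (10.1 to 18.7). The Antennapedia complex (338 kb) had 1.48 in replicate 1 (0.481 to 3.45) and 10.4 in replicate 2 (7.22 to 14.4). The rest of arm 3R had 1.26 and 7.05. In replicate 1 both intervals include the value of the rest of 3R, and in replicate 2 both lie above it; summits are not independent, and these intervals cover counting error only. Gene bodies varied in replicate 2, from 22.2 summits per 100 kb in *Abd-B* (10 summits), 13.1 in *abd-A* (3) and 12.6 in *Antp* (13) to 3.72 in *Scr* (1) and 0 in *Dfd*, which spans 10.6 kb. These counts are small, and no interval is given for single genes.

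**Figure D3:**
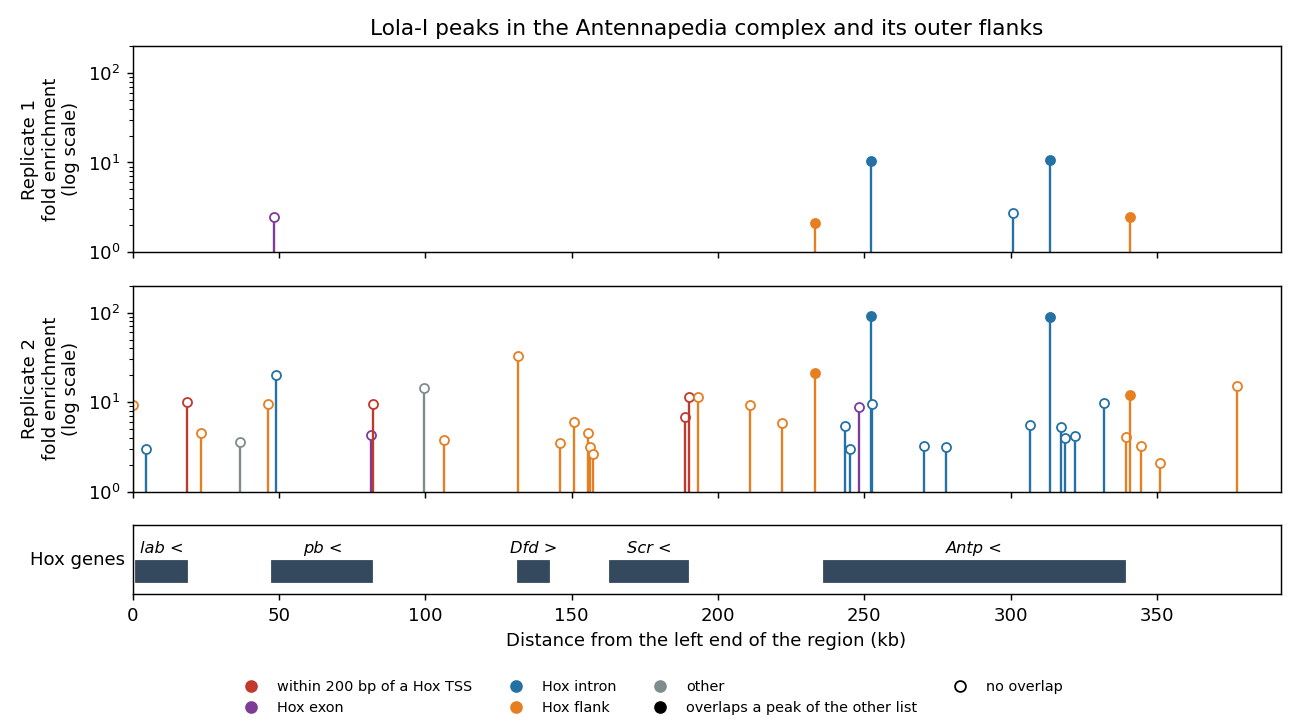
Lola-I summits across the Antennapedia complex and its outer flanks, with distance in kb from the left end of the region, fold enrichment on a log scale for replicate 1 (top) and replicate 2 (middle), and gene bodies below with their direction. Filled circles overlap a peak of the other list: the *Antp* introns hold the pair of tallest ones, near 90-fold in replicate 2 (91.7 and 90.0), and the genes from *lab* to *Scr* hold none.

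**Figure D4:**
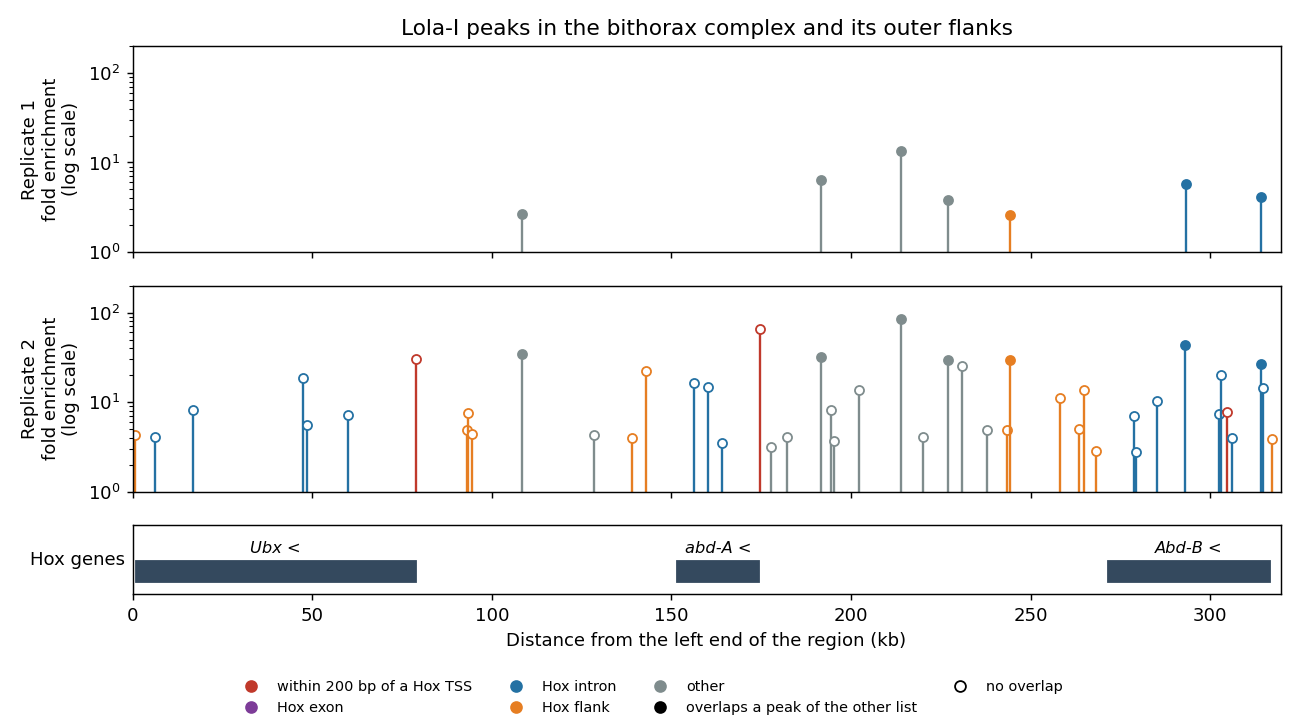
The same map for the bithorax complex and its outer flanks. All 7 summits of replicate 1 are filled and lie between *Ubx* and *abd-A*, between *abd-A* and *Abd-B* or within *Abd-B*, whereas the *Ubx* and *abd-A* promoter summits of replicate 2 (30.5-fold and 66.2-fold) are open.

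Whether a replicate 2 peak was found in replicate 1 went with its rank, at Hox genes and elsewhere. Of the 10 Hox summits in the best 10% of replicate 2, 7 were found in replicate 1, against 92.3% of the 968 peaks of that class on the whole list. In the second class of 10%, 4 of 14 were found, against 42.3%. Of the 64 Hox summits in the other 8 classes 0 were found, which lies near the low shares of these classes on the whole list. Only 13 of the 64 were in the third class, where the share was 9.81%, and 8 were in the fourth, where it was 3.00%. From the fifth class on the share was 1.34% or lower. Across the genome 75 peaks of the best class were not found in replicate 1, and 3 of them are Hox peaks: the *abd-A* promoter at rank 481, the summit upstream of *Dfd* at rank 559 and a summit between *abd-A* and *Abd-B* at rank 854 (25.6-fold).

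Around Hox summits AAAGCT was less frequent and GCCAT more frequent than around Lola-I peaks at large, and the GAGAG intervals overlapped. These differences were not tested. The 95% Wilson intervals of the word shares treat summits as independent, which neighbouring summits are not, and cover counting error only. AAAGCT lay within 100 bp of the summit in 2 of the 11 shared Hox peaks, or 18.2% (95% Wilson interval 5.14 to 47.7%), against 77.1% (74.9 to 79.2%) of the 1465 shared peaks of the arms. Both are the *Antp* intron peaks. Of the 77 Hox peaks of replicate 2 that were not shared, 6 had it, or 7.79% (3.62 to 16.0%), against 20.3% (19.5 to 21.2%) of 8200. Of the 13 unshared Hox peaks in the best 2 classes of 10%, 0 had it, against 32.2% of 633. By complex, 7 of 41 replicate 2 peaks had it in the Antennapedia complex and 1 of 47 in the bithorax complex, an intron peak of *Ubx* at rank 5122. For the frequency of the word itself, 14.6% of windows of the same 201 bp at the TSSs of protein-coding genes held it, as did 10.2% of consecutive windows across the complexes and 12.3% across 3R. Of the 7 Hox promoter summits 0 had the word, and of the 11 summits within 500 bp of a Hox TSS 0 had it. AAAGCT was picked from these same lists, so its share over all shared peaks is a description and no independent background. The 11 shared Hox peaks, none of them at a Hox promoter, were not matched for position to those of the arms.

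Over all replicate 2 Hox summits, the interval of the GAGAG share lay just above the share of all peaks and overlapped the interval of the latter. GAGAG was at nearly every summit next to a Hox TSS. It lay within 100 bp of 50 of 88 replicate 2 Hox summits, or 56.8% (46.4 to 66.7%), against 46.3% (45.3 to 47.3%) of all 9665 peaks of the arms. Among the shared peaks the counts were 6 of 11 (54.5%, 28.0 to 78.7%), against 47.6%. Of the 7 Hox promoter summits 6 had it, all but that of *pb*, and of the 11 within 500 bp of a Hox TSS 10 had it. The share over all replicate 2 peaks next to a TSS is not given, so these counts have no like background for GAGAG. The shares of windows of this size that hold it were 22.9% at TSSs of protein-coding genes, 23.6% across the complexes and 21.4% across 3R. The *abd-A* promoter window above shows a run of it at its right end, and the *Ubx* window shows 3 matches.

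GCCAT was searched after the data had been seen, and Hox summits were not matched for position to the peaks of the arms. It lay within 100 bp of 61 of 88 replicate 2 Hox summits, or 69.3% (59.0 to 78.0%), against 34.2% (33.2 to 35.1%) of all 9665. Among the shared peaks it was at 9 of 11, or 81.8% (52.3 to 94.9%), against 35.5% (33.1 to 38.0%). The complexes hold more of the word in general, with 40.5% of consecutive windows against 36.2% across 3R and 31.5% at TSSs of protein-coding genes. GAGAG and GCCAT stood together at 35 of 88 Hox peaks (39.8%), against 14.9% of all replicate 2 peaks, and at 6 of 11 shared Hox peaks (54.5%), against 15.7%. The *Dfd* window above has 3 matches to GCCAT beside 1 GAGAG. The shared Hox peak with none of the 3 words within 100 bp is the *Abd-B* intron peak at rank 1271 in replicate 2. A word match is a description of the sequence, and no binding of Pho or GAF was measured here.

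**Figure D5:**
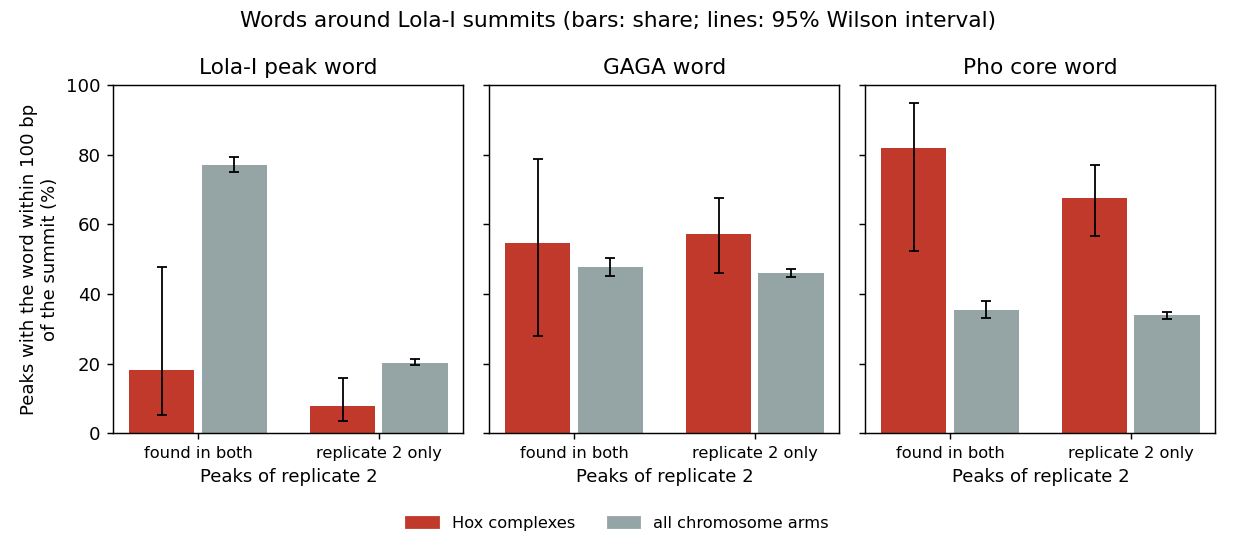
Share of replicate 2 peaks with AAAGCT (left, the Lola-I peak word), GAGAG (middle, the GAGA word) and GCCAT (right, the Pho core word) within 100 bp of the summit, for peaks found in both lists and for peaks of replicate 2 only. Red bars are the Hox complexes, grey bars all chromosome arms, and lines are 95% Wilson intervals. The red bars stand below the grey ones for AAAGCT (18.2% and 77.1% for peaks in both lists) and above them for GCCAT (81.8% and 35.5%).

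Core promoter words at the 19 Hox TSSs were counted beside their share at 1 TSS for each protein-coding gene. A TATA box, matched by its consensus from -45 to -15, was at 0 of 19, against 7.76% of protein-coding genes, an initiator from -10 to 10 at 1 (*Antp* TSS 3), against 9.29%, and the pause button from 1 to 60 at 1 (*Abd-B* TSS 2), against 5.00%. GAGAG from -150 to 50 was at 11 of 19 TSSs, at least 1 in each of the 8 genes. At the 1 TSS per gene used by most transcripts, which is the like comparison, the TATA box was at 0 of 8 Hox genes, the initiator at 1, the pause button at 0 and GAGAG at 5 of 8, the last against 22.9% of protein-coding genes. The first 3 counts are too small to set apart from their background shares. An exact match misses variants of these words.

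Genes linked to the Hox genes by function or place were read the same way, from lists chosen with earlier results of these data known. Of 5 chosen non-Hox genes of the Antennapedia complex, *zen*, *zen2*, *bcd*, *ftz* and *Ama*, 0 had a promoter summit in either list, against 5.50% of protein-coding genes in replicate 1 and 30.9% in replicate 2. Of 5 Hox cofactor genes, replicate 1 had a summit at 1, *tsh*, which works with trunk Hox proteins (rank 1593 and 2.20-fold in replicate 1). Its peak overlapped a replicate 2 peak whose summit was not within 200 bp of a *tsh* TSS. Replicate 2 had one at *hth*, which brings the cofactor Exd into the nucleus (rank 3477, 7.09-fold).

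Of 21 Polycomb group genes, 3 had a promoter summit in replicate 1 (14.3%), 14 in replicate 2 (66.7%) and 3 in both (14.3%), against 5.50%, 30.9% and 5.44% of protein-coding genes. No list was tested against that background. The 3 are *Pc*, which encodes the chromodomain subunit of the PRC1 complex (rank 1355 in replicate 1, 3.11-fold, and rank 1129 in replicate 2, 27.1-fold), *escl* (ranks 1502 and 1501) and *jing* (ranks 1095 and 1697). *Psc*, another PRC1 subunit, and its neighbour *Su(z)2* had replicate 2 summits at ranks 1422 and 1552. Of 16 trithorax group genes, 0 had one in replicate 1 and 10 in replicate 2 (62.5%), against 5.50% and 30.9% of protein-coding genes, with *skd*, a Mediator subunit gene (rank 898, 28.8-fold), and *fs(1)h*, a bromodomain protein gene (rank 928, 28.0-fold), ahead of *trx* (rank 2351), *lolal* (rank 3042) and *osa* (rank 4035). Of 44 other homeobox genes, 7 had one in replicate 1 (15.9%), 26 in replicate 2 (59.1%) and 6 in both (13.6%), against the same background shares. Of the 6, *ap*, *caup*, *so* and *gsb-n* had a promoter summit in each list, while *Dll* and *Lim1* had one in replicate 1 whose peak overlapped a replicate 2 peak with its summit farther from the TSS. The best-ranked of these in replicate 2 were *ap* (464, 41.3-fold), *en* (564, 38.3-fold), *lbe* (618, 39.5-fold), *cad* (649, 35.9-fold) and *toy* (698, 47.3-fold). The Hox genes, with 6 of 8 in replicate 2 and 0 of 8 in both, were not tested against these lists.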

How the data were processed

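Per the labels' protocols, embryos were fixed in formaldehyde, chromatin was sonicated and immunoprecipitated, and the libraries were made with a NEBNext kit. The submitters' processing notes name CASAVA 1.8.2, Bowtie 1.0.0 and build dm6. The peak caller, its control and its filters are not given in the sources used here. The authors deposited 1 narrowPeak-type list per replicate, with a summit, a score, a fold enrichment (a ratio), a −log10 p-value and a −log10 q-value per peak. In every peak the score is the deposited −log10 p-value multiplied by 10, without its decimals. Each list was used by itself for ranks, since these values depend on the depth and background of their library, which peak lists do not give. Peaks off the 7 arms were left out of counts against genes.

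Gene models were those of Ensembl release 115 (BDGP 6.54), and sequence was that of RefSeq Release 6. Classes were assigned in the order promoter (200 bp), coding sequence, UTRs, intron and flank. Peaks were shared at an overlap of 1 bp or more. Counts, intervals and words used Python 3.11.15, NumPy 2.4.6, SciPy 1.17.1 and matplotlib 3.10.9, and summits placed at known positions were recovered. No tests were run. Named were all 8 genes, shared summits, the best-ranked and nearest summits, and of other lists the genes bound in both and at most 5 by replicate 2 rank. The values of 1 shared summit are not reported here. Of these lists 1 symbol, *calypso*, had no match. The pause button and the other core promoter words were exact consensus matches. Members, lists and words were chosen with earlier results of these data known. Alternatives changed the distance, flank, overlap rule, window and peaks used.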

Additional observations from a re-analysis of the deposited data

How the results depend on the processing

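No paired analysis was possible because 1 group of 2 replicates was used. Of 87 alternative values for 31 results, 68 stayed within 1.5 times the main count or within its interval, and 19 moved. Some of the 68 could not have moved, such as a main count of 0 under a narrower distance or with fewer peaks. The total is therefore no measure of how stable the results are. With 1 replicate left out, Hox genes counted in both lists ranged from 0 to 6 for promoters, 2 to 6 for introns and 2 to 8 for flanks. With flanks ended at the nearest gene of any kind, flank genes fell to 0 in replicate 1 and in both. With flanks run to the next Hox gene, an alternative chosen after seeing the data, they were 5 in replicate 1 and 5 in both. The higher-scoring 50% of each list gave 0 in replicate 1 and 0 in both. Replicate 2 promoter genes numbered 2 within 100 bp. With replicate 2 limited to the length of replicate 1, promoter genes numbered 2 and flank genes 4, and the median TSS distance, added after seeing the data, was 4482 bp. The shares of all genes with replicate 2 so limited are not given. A reciprocal overlap of at least 50% left 6 of 11 shared Hox peaks. GCCAT within 50 bp, likewise added after seeing the data, was at 3 of 7 promoter summits, against 5 within 100 bp. The causes were not tested. Peak lists do not show signal below their calling limit, so none could be looked for at Hox promoters in replicate 1.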
